A study of Mus musculus with 12 samples.

Results

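The 10 genes described here encode proteins that work with AUTS2 in a variant form of Polycomb repressive complex 1 (PRC1). They are Pcgf3, Pcgf5, Ring1, Rnf2, Rybp, Yaf2, Ep300, Csnk2a1, Csnk2b and Nrf1. The rule took known components or recruiters of that complex and used no value measured here, though earlier results of these data were known. All 10 were found by symbol among the 55487 gene identifiers of the count files, and all 10 had enough counts to be tested in every comparison. RNA was sequenced from the brains of 12 individual male mice in 4 groups of 3. At postnatal day 0 (P0) the forebrain was taken from knockouts labelled cmv-cre_auts2-ex7koko and from wild-type controls labelled BL6 WTLM. At postnatal day 14 (P14) the hippocampus was taken from knockouts labelled nes-cre_auts2-ex7koko and from controls labelled auts2-ex7-fl-het.

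Both knockouts derive from the floxed allele Auts2tm1.1Dare, in which Cre removes exon 7 and so the long AUTS2 isoform, while the gene's shorter isoform is left. Cmv-cre acts throughout the body, whereas Nes-cre acts in the neural lineage, to which vessels and microglia do not belong. The labels do not say whether the P14 controls carry Cre, so it is not known whether 1 of their alleles was inactivated. Controls of both ages were littermates, and no library was pooled from several animals.

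PRC1 silences genes by attaching ubiquitin to histone H2A, through a catalytic RING1 or RNF2 subunit paired with 1 of the PCGF proteins. The PCGF protein defines the form of the complex. Forms built on PCGF3 or PCGF5 can hold AUTS2, which brings in casein kinase 2 and the acetyltransferase P300, and in neurons this form is known for being found at active genes, where the DNA-binding factor NRF1 (nuclear respiratory factor 1) helps to recruit it. The RNA levels given here do not measure the assembled complex.

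NRF1 binds a GC-rich motif, and its matches in the promoters of the 10 genes are shown first. The motif GCATGCGC was searched on both strands, where it reads GCGCATGC, in RefSeq promoter windows of GRCm38.p6 that run from 250 bases before to 50 bases after an annotated start. It was present in 2.71% of all 32851 windows. Windows were at hand for 8 of the 10 genes, 13 windows in all, and 2 of them held the motif. Rybp and Yaf2 had no entry. The match in Pcgf3 lies on chromosome 5, plus strand, at chr5:108461255-108461284, and begins 7 bases after the start. That in Csnk2b lies on chromosome 17, minus strand, at chr17:35122167-35122196, and begins 132 bases before the start. Each is printed 5′ to 3′ along its gene's strand, as 30 bases with the motif in capitals.
Pcgf3: agccacacactGCGCATGCtccagccgcgg
Csnk2b: ggcagaacgagGCATGCGCaggagcaacaa
A match is a run of letters and not a measured binding site, and for the other 6 genes these letters were only absent from the windows searched.

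Total counts lay between 11247150 and 16796797 per P0 library and between 16830720 and 23340621 per P14 library. Levels are given as normalised counts (CPM), scaled by library size and TMM factors over all 12 libraries. The P0 libraries fell into 2 library number series, 1407 to 1410 and 1415 to 1416, the second of which holds replicate 3 of each genotype. Within the first series alone 2107 genes passed the threshold, 12.9% of those tested, against 147 genes in all 6 P0 libraries. Control replicate 3 stood apart at P14, where leaving it out raised the number of genes past the threshold from 342 to 1808, or 10.3% of those tested. Marker lists moved with the knockout at P14: 4 of 6 cortical layer and subplate genes were higher, with a median log2 fold change of 1.00, and 3 of 8 hippocampal genes were lower. Striatal genes had a median of 1.06 at P14, 1 of 6 was called higher (Drd1), and 6 of 6 had a positive log2 fold change. At P0, 1 of 6 cortical genes was called higher, but only 2 of 6 had a positive log2 fold change, with a median of -0.29. On each of the microglial and astrocyte lists 1 of 5 genes was called lower and 0 were positive, with medians of -0.38 and -0.51. Summed choroid plexus markers ranged from 148 to 2535 CPM among the P14 controls. All 6 forebrain markers and 7 of the 8 hippocampal markers had counts in every library, and Spink8 had 0 in 1 P0 wild type. The targeted gene, Auts2, is counted over all isoforms, so its total does not check the loss of exon 7. Its log2 fold change was 0.16 at P0 and -0.30 at P14, with edgeR adjusted p of 0.362 and 0.111.

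**Figure D1:**
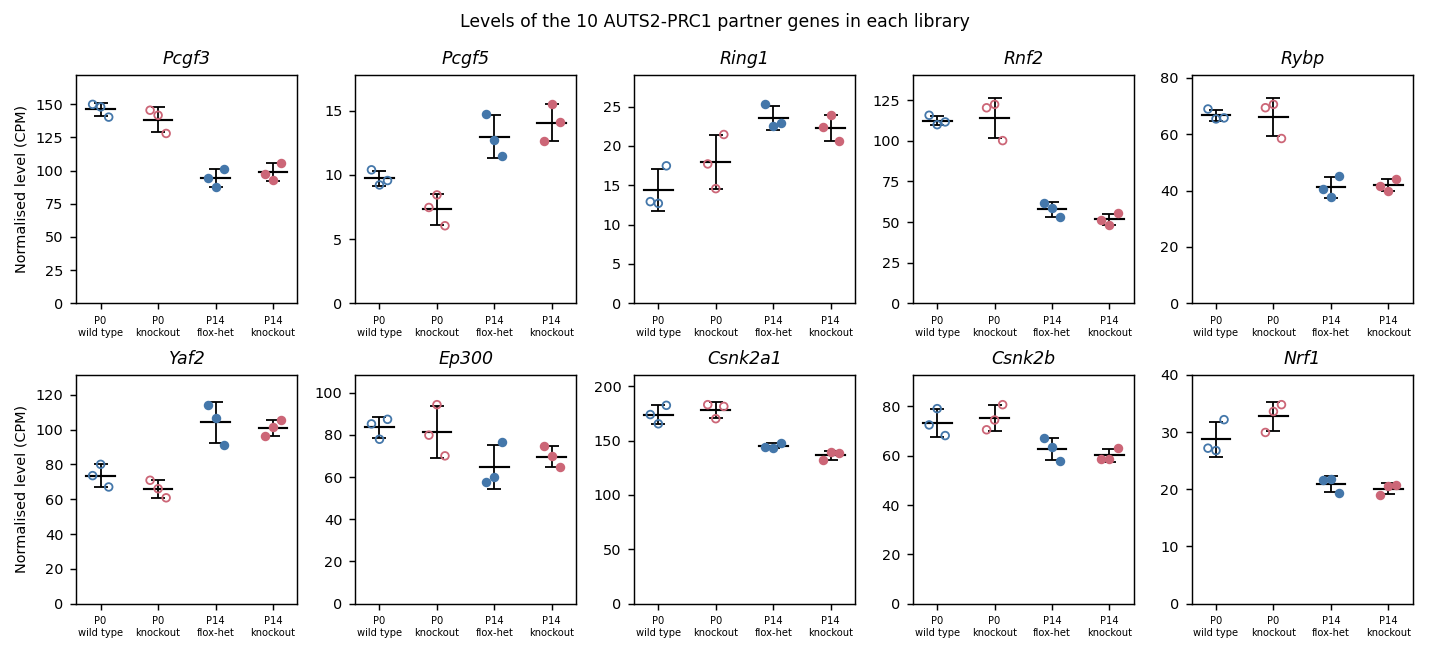
Normalised level (CPM, linear axis from 0) of each of the 10 partner genes in the 12 libraries; points are libraries, long bars the mean and whiskers the SD of 3. Knockout and control libraries lie together within each age for most genes, while the P0 and P14 control libraries do not overlap for any of the 10. The share of all genes without such overlap between the control groups was not counted.

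None of the 10 genes differed between knockout and control at a Benjamini-Hochberg adjusted p under 0.05, the threshold used throughout, at P0 or at P14 (edgeR quasi-likelihood test over all genes tested). The background was 0.909% of 16176 genes at P0 and 1.99% of 17208 genes at P14, so a count of 0 in 10 lies close to the background. At an unadjusted p under 0.05 there was 1 of the 10 genes at P0, Pcgf5, and 0 at P14, against 16.1% and 15.2% of all genes, and DESeq2 also called 0 in either. The median size of the log2 fold change was 0.06 at P0 and 0.07 at P14 over the 10 genes, beside 0.14 and 0.13 over all genes tested. Over the 54 other Polycomb and partner genes described below it was 0.08 at each age, so small changes are not particular to the 10. The 95% intervals allowed differences from -41.5% to 57.7% at P0 and from -20.5% to 32.6% at P14 for the least precise genes. Libraries of the 2 genotypes did not overlap for 1 of the 10 genes at each age, Pcgf5 at P0 and Csnk2a1 at P14. Among all genes tested, 21.8% did not overlap at P0 and 20.0% at P14. The test compares animals, and fewer cells of a type and less RNA per cell cannot be told apart in RNA from whole tissue.

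**Figure D2:**
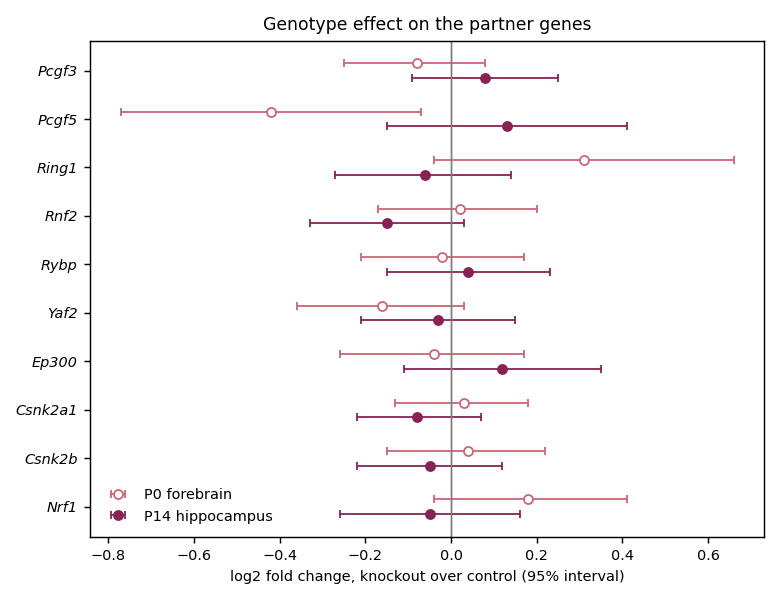
Log2 fold change of each partner gene, knockout over control, with its 95% interval, at P0 (open points) and at P14 (filled points). The P0 interval of Pcgf5, from -0.77 to -0.07, is the only one of the 20 that leaves out 0, and its adjusted p was 0.22.

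PCGF3 and PCGF5 are the subunits that define the AUTS2-containing complex, and each can take the other's place. Pcgf3 (ENSMUSG00000033623) lies on chromosome 5 of GRCm38 from 108461232 to 108506976, on the chromosome of Auts2 and 22.9 Mb from it. Its level was 149.8, 147.9 and 140.2 CPM in the P0 wild types and 145, 142 and 128 CPM in the P0 knockouts. In the P14 controls it was 94.1, 87.5 and 101.2 CPM, and in the P14 knockouts 97.7, 93.1 and 105.9 CPM. The genotypes overlapped at both ages, and every P14 library was below every P0 library. The log2 fold change between genotypes was -0.08 (SE 0.08, edgeR adjusted p 0.639) at P0 and 0.08 (SE 0.08, adjusted p 0.704) at P14.

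Pcgf5 (ENSMUSG00000024805, chromosome 19, 36348309 to 36460970) was the scarcest of the 10 genes, with 94 to 334 counts per library. Its level was 10.4, 9.22 and 9.57 CPM in the P0 wild types and 7.47, 8.44 and 6.04 CPM in the P0 knockouts. All 3 knockouts were below all 3 wild types, with means of 7.32 ± 1.21 and 9.73 ± 0.609 CPM (SD, n = 3 each). On the log2 scale they differed by -0.42 (SE 0.16), with an unadjusted p of 0.0211 and an edgeR adjusted p of 0.22, so the difference did not pass the threshold. It was -0.30 within the first library series, with an adjusted p of 0.301, and -0.43 with the series as a term, with an adjusted p of 0.142. At P14 the controls had 14.8, 12.7 and 11.5 CPM and the knockouts 12.7, 15.5 and 14.1 CPM. These overlapped, with a log2 fold change of 0.13 (SE 0.13, edgeR adjusted p 0.697). The change at P14 minus that at P0 was 0.54 on the log2 scale, with an interval from 0.10 to 0.97. This difference of effects reached an unadjusted p of 0.0178 and an edgeR adjusted p of 0.216. Of the 18189 genes tested 1.79% passed, and none of the 10 genes did. Tissue, age, Cre line, control genotype and library series cannot be told apart in the difference of effects.

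RING1 (also RING1A) and RNF2 (also RING1B) are the E3 ligases that ubiquitinate histone H2A, and each PRC1 complex holds 1 of them. Ring1 (ENSMUSG00000024325, chromosome 17, 34020792 to 34024680) was at 12.9, 12.7 and 17.5 CPM in the P0 wild types. The P0 knockouts had 17.7, 14.6 and 21.4 CPM. Replicate 3, the library of the second series, was the highest of each genotype, and the groups overlapped. The log2 fold change was 0.31 (SE 0.16, edgeR adjusted p 0.376), and within the first series it was 0.34 with an adjusted p of 0.15. Single libraries moved it, from 0.15 without knockout replicate 3 to 0.49 without wild-type replicate 3, and it passed in none of these fits. In the P14 hippocampus Ring1 was at 25.3, 22.5 and 22.9 CPM in controls and 22.4, 23.9 and 20.6 CPM in knockouts, a log2 fold change of -0.06 (SE 0.10, edgeR adjusted p 0.818). These groups overlapped as well.

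Rnf2 (ENSMUSG00000026484, chromosome 1, 151458004 to 151500955) was at 115.7, 109.9 and 111.6 CPM in the P0 wild types and 120.3, 122.4 and 100.1 CPM in the P0 knockouts. The knockouts lay on both sides of the wild types, and the log2 fold change was 0.02 (SE 0.09, edgeR adjusted p 0.943). At P14 it was at 61.9, 58.5 and 53.0 CPM in controls and 51.2, 48.3 and 55.3 CPM in knockouts. Only knockout replicate 3 reached into the control range, and the log2 fold change of -0.15 (SE 0.08) had an edgeR adjusted p of 0.417. Rnf2 shares 158 exon bases with the antisense gene Trmt1l, which had at most 619 counts, and counts without strand cannot tell the 2 genes apart there.

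RYBP and YAF2 are homologous adaptors that occupy the place in variant PRC1 which chromobox proteins take in the canonical complex, and they stimulate its ligase activity. Rybp (ENSMUSG00000072872, chromosome 6, 100228565 to 100287485) was at 69.0, 65.4 and 65.8 CPM in the P0 wild types and 69.4, 70.6 and 58.5 CPM in the P0 knockouts. At P14 it was at 40.7, 37.7 and 45.0 CPM in controls and 41.6, 39.9 and 44.1 CPM in knockouts. The genotypes overlapped at both ages. The log2 fold changes of -0.02 (SE 0.09) and 0.04 (SE 0.09) had intervals within 20% either way.

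Yaf2 (ENSMUSG00000022634, chromosome 15, 93284278 to 93336935) was at 73.6, 80.1 and 67.1 CPM in the P0 wild types and 70.9, 66.1 and 60.8 CPM in the P0 knockouts. The knockouts tended low but overlapped the wild types, with a log2 fold change of -0.16 (SE 0.09, edgeR adjusted p 0.41). In the P14 libraries Yaf2 was at 114.4, 106.9 and 91.3 CPM in controls and 96.3, 101.8 and 105.4 CPM in knockouts. The 3 knockouts fell inside the range of the controls, with a log2 fold change of -0.03 (SE 0.08, edgeR adjusted p 0.914).

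P300, the product of Ep300 (ENSMUSG00000055024, chromosome 15, 81585351 to 81652077), acetylates histones at enhancers and promoters and gives the AUTS2 complex its activating side. It was at 85.2, 78.0 and 87.4 CPM in the P0 wild types and 79.9, 94.4 and 70.1 CPM in the P0 knockouts. The knockouts spanned the wild types, with a log2 fold change of -0.04 (SE 0.10, edgeR adjusted p 0.874). At P14 the controls had 57.5, 60.2 and 76.5 CPM and the knockouts 74.7, 69.8 and 64.7 CPM. Control replicate 3, the library that stood apart at P14, was the highest of the 6, and the log2 fold change was 0.12 (SE 0.11, edgeR adjusted p 0.665). Without that library it was 0.26 with an edgeR adjusted p of 0.0339, the only call among the 10 genes in any fit of either genotype comparison. In that fit 10.3% of all genes passed.

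Casein kinase 2 binds AUTS2 and phosphorylates RNF2, which is known to inhibit the ligase. Csnk2a1, its catalytic alpha subunit (ENSMUSG00000074698, chromosome 2, 152226839 to 152281852), was at 173.9, 165.4 and 182.4 CPM in the P0 wild types and 183, 170.1 and 181.4 CPM in the P0 knockouts. In the P14 controls it was at 144.4, 143.5 and 147.7 CPM, and in the P14 knockouts at 132, 139.5 and 138.2 CPM. All P14 knockouts were below all controls by a small margin, with a log2 fold change of -0.08 (SE 0.07, edgeR adjusted p 0.649), and the P0 groups overlapped (0.03, SE 0.07, adjusted p 0.883). Its pseudogenes Csnk2a1-ps and Csnk2a1-ps1 had at most 6 counts in any library.

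Csnk2b, the regulatory beta subunit (ENSMUSG00000024387, chromosome 17, 35116196 to 35122053), was at 72.5, 79.1 and 68.2 CPM in the P0 wild types and 70.5, 74.5 and 80.7 CPM in the P0 knockouts. At P14 it was at 67.0, 63.4 and 57.8 CPM in controls and 58.5, 58.8 and 63.1 CPM in knockouts. The genotypes overlapped at both ages, with log2 fold changes of 0.04 (SE 0.09, edgeR adjusted p 0.883) and -0.05 (SE 0.08, adjusted p 0.831). It shares 62 exon bases with the antisense gene Gpank1, which had at most 141 counts.

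NRF1 is a transcription factor of nuclear genes for mitochondrial function, and recruits the AUTS2 complex to part of its sites. Nrf1 (ENSMUSG00000058440, chromosome 6, 30047988 to 30153458) was at 27.2, 26.8 and 32.2 CPM in the P0 wild types and 29.9, 33.6 and 34.8 CPM in the P0 knockouts. The knockouts tended high, but wild-type replicate 3, of the second series, lay among them. The log2 fold change was 0.18 (SE 0.11, edgeR adjusted p 0.422) and 0.24 in the first series, with an adjusted p of 0.138. It reached 0.29 without wild-type replicate 3, with an edgeR adjusted p of 0.196. In the P14 hippocampus Nrf1 was at 21.7, 21.8 and 19.4 CPM in controls and 19.1, 20.6 and 20.7 CPM in knockouts, which overlapped (-0.05, SE 0.10, edgeR adjusted p 0.875).

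Larger differences were measured between the 2 control groups. In the P14 flox-het hippocampus 3 of the 10 genes were higher than in the P0 wild-type forebrain and 7 were lower, and the libraries of the 2 groups did not overlap for any of them. The higher genes were Ring1, Yaf2 and Pcgf5. The lower genes were Rnf2, Rybp, Pcgf3, Nrf1, Ep300, Csnk2a1 and Csnk2b. Of all 18189 genes tested 64.0% passed in this contrast, 32.3% higher and 31.7% lower, so passing it is the common outcome and sets no gene apart. The share of all genes whose control libraries did not overlap was not counted, so the lack of overlap sets no gene apart either. The median size of the difference was 0.48 on the log2 scale over the 10 genes and 0.59 over all genes tested. Tissue, age, control genotype and library series cannot be told apart in this contrast.

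**Figure D3:**
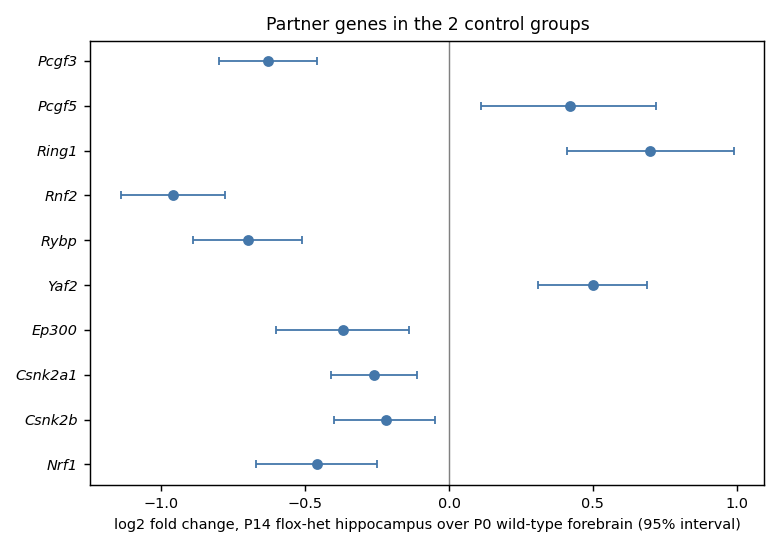
Log2 fold change of each partner gene in P14 flox-het hippocampus over P0 wild-type forebrain, with its 95% interval. Ring1, Yaf2 and Pcgf5 lie to the right of 0 and the other 7 genes to the left, with Rnf2 farthest at -0.96.

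Rnf2 was the gene with the widest difference, from 112.4 ± 2.98 CPM in the P0 wild types to 57.8 ± 4.51 CPM in the P14 controls (SD, n = 3 each), a log2 difference of -0.96 (SE 0.09, edgeR adjusted p 2.43e-09). Ring1, its paralog, went the other way, from 14.4 ± 2.69 to 23.6 ± 1.5 CPM, a log2 fold change of 0.70 (SE 0.14, edgeR adjusted p 0.000129).

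Rybp fell from 66.7 ± 1.95 to 41.1 ± 3.71 CPM (-0.70, SE 0.09, edgeR adjusted p 6.4e-07). Its homolog Yaf2 rose from 73.6 ± 6.50 to 104.2 ± 11.8 CPM (0.50, SE 0.09, edgeR adjusted p 4.82e-05). Pcgf3 fell from 146 ± 5.10 to 94.3 ± 6.82 CPM (-0.63, SE 0.08, edgeR adjusted p 4.37e-07). Pcgf5 rose from 9.73 ± 0.609 to 13.0 ± 1.66 CPM (0.42, SE 0.15, edgeR adjusted p 0.0169). In each of these 3 pairs 1 paralog was higher at P14 and the other was lower. With 32.3% of all genes higher and 31.7% lower, either direction is common for a single gene. How often other pairs of genes differ in opposite directions was not measured. The 2 subunits of casein kinase 2, Csnk2a1 and Csnk2b, were both lower.

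The remaining genes were lower by smaller margins. Nrf1 had a log2 fold change of -0.46 (SE 0.10), Ep300 of -0.37 (SE 0.11) and Csnk2a1 of -0.26 (SE 0.07), with edgeR adjusted p of 0.000492, 0.00677 and 0.00273. Csnk2b had -0.22 (SE 0.08, edgeR adjusted p 0.0249). The calls of Csnk2b and Pcgf5 lay near the threshold and were lost in some of the fits with 1 library fewer. Csnk2b passed in 2 of the 6 fits that left out 1 control library and Pcgf5 in 4 of 6, with edgeR adjusted p up to 0.138 and 0.09. The libraries that ended the call were wild-type replicates 1 and 2 and P14 control replicates 2 and 3 for Csnk2b, and wild-type replicate 2 and P14 control replicate 1 for Pcgf5. The directions held in all of these fits.

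Marker RNA of several cell types also differed widely between the same groups. Summed oligodendrocyte markers were at 75.7 to 78.2 CPM in the P0 wild types and at 3872 to 5847 CPM in the P14 controls, with 5 of 5 genes higher. Astrocyte markers were at 417 to 561 and 2048 to 2090 CPM, with 4 of 5 higher, and microglial markers at 44.4 to 58.6 and 226 to 243 CPM, with 4 of 5 higher. Neural progenitor markers were at 328 to 357 CPM at P0 and 149.3 to 157.8 CPM at P14, with 5 of 6 lower. No gene of these 4 lists was at 0 in every library, and their part in the differences of the 10 genes was not tested.

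The balance within a pair was measured as the log2 ratio of counts per exon length inside each library, which needs no scaling between libraries. Union exon length, 12629 bases for Pcgf5, overstates the length of single transcripts. A shift of the ratio between groups is free of that error as long as the isoforms used do not shift. Pcgf3 exceeded Pcgf5 by 19.9-fold in the P0 wild types and by 9.64-fold in the P14 controls. The log2 ratios were 4.25, 4.41 and 4.28 in the P0 wild types and 4.69, 4.47 and 4.81 in the P0 knockouts. All 3 knockouts were higher, by 0.34 on average, with an exact two-sided permutation p of 0.1, the smallest that 3 against 3 can give, and 0.229 after adjustment over the 16 ratio tests. At P14 the log2 ratios were 3.07, 3.19 and 3.54 in controls and 3.35, 2.99 and 3.31 in knockouts, which overlapped.

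Rnf2 exceeded Ring1 by 6.22-fold per exon length in the P0 wild types and by 1.93-fold in the P14 controls. The log2 ratios of Ring1 to Rnf2 were -2.81, -2.77 and -2.33 in the P0 wild types, and -0.94, -1.03 and -0.87 in the P14 controls. Yaf2 exceeded Rybp by 2.78-fold in the P0 wild types and by 6.40-fold in the P14 controls. The log2 ratios of Rybp to Yaf2 were -1.43, -1.63 and -1.37 at P0 and -2.83, -2.85 and -2.36 at P14 in those groups. The levels of the RING1 pair were closer at P14 and those of the RYBP pair farther apart. Knockout libraries overlapped control libraries for both ratios at both ages, with exact permutation p from 0.3 to 0.8.

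Over all 6 P14 against all 6 P0 libraries, a comparison added after the data had been seen, the Pcgf3 to Pcgf5 ratio differed by -1.24, the Ring1 to Rnf2 ratio by 1.58 and the Rybp to Yaf2 ratio by -1.24 on the log2 scale. None of the 3 overlapped between the ages, and each had an exact two-sided permutation p of 0.00216, the smallest that 6 against 6 can give, and 0.0115 after adjustment over the 16 tests. These libraries mix knockouts and controls in each age. In the controls among them, the 2 genes of each pair had already been seen to differ in opposite directions. The separation of the ratios, and its p, largely followed from those differences and give them no further support. How often other pairs of genes separate in this way was not measured. No such separation was measured for the 2 subunits of casein kinase 2. Csnk2b exceeded Csnk2a1 by 1.44-fold in the P0 wild types and by 1.48-fold in the P14 controls. The ages differed by -0.05 on the log2 scale, the libraries overlapped, and the exact permutation p was 0.465.

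**Figure D4:**
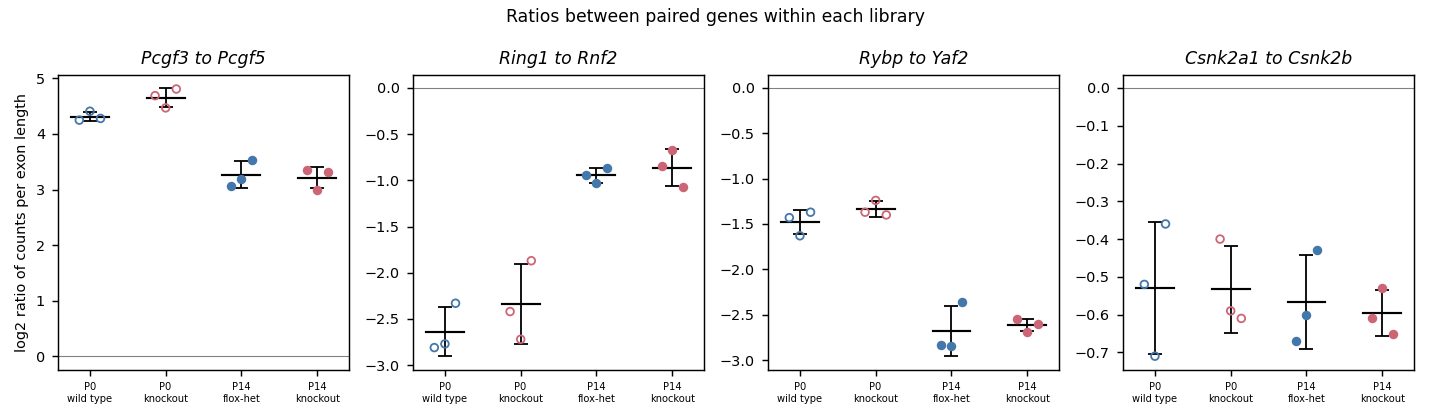
Log2 ratio of counts per exon length between the paired genes in each library (points), with mean and SD of 3 libraries; each panel has its own axis. The first 3 ratios separate P0 from P14 without overlap in either genotype, and Csnk2a1 to Csnk2b overlaps between all 4 groups.

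Levels of different genes can be set beside each other only per length, here as CPM per kilobase of union exon (RPKM). In the P0 wild types the order ran from Yaf2 (39.3 ± 3.47 RPKM) and Csnk2b (35.4 ± 2.66 RPKM), which overlapped, through Rnf2, Csnk2a1, Pcgf3, Rybp, Ep300, Ring1 and Nrf1 to Pcgf5 (0.77 ± 0.0482 RPKM, SD, n = 3 each). Every other neighbour in that order was apart in all 3 libraries. In the P14 controls Yaf2 led at 55.6 ± 6.31 RPKM, above Csnk2b at 30.3 ± 2.24 RPKM, and only Pcgf3 and Rybp overlapped as neighbours, at 9.88 ± 0.715 and 8.68 ± 0.782 RPKM. Csnk2a1 then stood above Rnf2, and Ring1 above Ep300. Pcgf5 was last in all 4 groups.

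Mammals have 6 PCGF genes, and the share of each in their summed level per exon length shows how the pair that binds AUTS2 stands among them. Pcgf3 held 20.9% ± 0.772 of the sum in the P0 wild types, 17.6% ± 1.17 in the P0 knockouts, 22.3% ± 2.32 in the P14 controls and 24.8% ± 1.92 in the P14 knockouts (SD, n = 3 each). Pcgf5 held 1.05% ± 0.0543, 0.702% ± 0.0997, 2.32% ± 0.292 and 2.67% ± 0.246 in the same order. The P0 genotypes did not overlap in either share, and those at P14 did in both. These shares depend on the other 4 genes of the sum. At P0 all 4 had a positive log2 fold change, with a median of 0.26, and 0 passed the threshold. The level of Pcgf3 itself overlapped between the P0 genotypes. How often shares of other genes do not overlap was not counted. Bmi1 (PCGF4), a subunit of canonical PRC1, had the largest mean share in every group, at 32.8% in the P0 wild types and 35.5% in the P14 controls. Pcgf2, the other canonical PCGF gene, held 26.5% and 11.8%, Pcgf6 11.8% and 13.1%, and Pcgf1 7.01% and 15%.

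**Figure D5:**
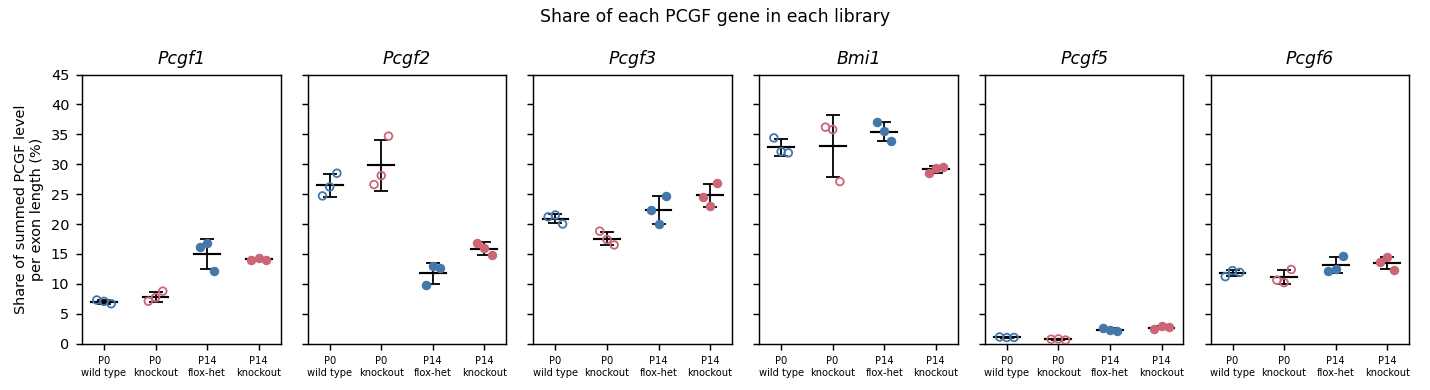
Share of each PCGF gene in the summed PCGF level per exon length (%, axis from 0 to 45) in each of the 12 libraries, with mean and SD of 3. Pcgf5 stays below 3% in every library, and Pcgf2 is above 24% in all P0 libraries and below 17% in all P14 libraries.

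Pearson r of log2 CPM over the 12 libraries was used to find the genes whose pattern was most like that of the 2 defining subunits, as a description of libraries that share 2 ages. For Pcgf3 the nearest of all tested genes was Rybp, another of the 10 genes, with r 0.991, followed by Zc3hav1l (0.99) and 9030612E09Rik (0.988). For Pcgf5 they were Clic5 (0.971), Nus1 (0.961) and Plpp4 (0.96). Clic5 was at 2.74 CPM in the P0 wild types and 5.64 CPM in the P14 controls, as geometric means.

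The AUTS2 paralogs Fbrs and Fbrsl1, which can take the place of AUTS2 in PRC1, passed the threshold in neither genotype comparison. Fbrsl1 had a log2 fold change of 0.25 (SE 0.08, edgeR adjusted p 0.155) at P0, and Fbrs 0.19 (SE 0.09, adjusted p 0.35) at P14. Auts2 itself was lower in the P14 than in the P0 controls (-0.56, SE 0.09, edgeR adjusted p 1.17e-05), whereas Fbrs (-0.15) and Fbrsl1 (0.14) did not pass. Paralogs of the partners and 1 further subunit were also at hand. Dcaf7, a scaffold protein found with AUTS2 complexes, was at 359.8 ± 9.20 CPM in P14 controls and 422 ± 20.8 CPM in P14 knockouts (SD, n = 3 each), apart in all libraries (0.24, SE 0.07, edgeR adjusted p 0.0817). Crebbp, the paralog of Ep300, and Csnk2a2, the second catalytic subunit of casein kinase 2, had log2 fold changes between -0.06 and 0.06 in both genotype comparisons.

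Other Polycomb genes were read from lists of the remaining PCGF genes, canonical PRC1, the PCGF1 and PCGF6 forms of variant PRC1, PRC2, and enzymes that oppose Polycomb together with their cofactors. With the 3 genes of the preceding partner list they make 54 genes, all of them tested. At P0 0 of the 54 genes passed and 36 had a positive log2 fold change, with a median of 0.06 beside -0.00 over all genes. The nearest to the threshold was Mtf2, a PRC2 accessory subunit (0.37, SE 0.10, edgeR adjusted p 0.103). At P14 1 of 54 passed, Bmi1, and the median was -0.03 beside -0.01. Bmi1 was at 64.7, 64.7 and 57.9 CPM in controls and 47.1, 49.6 and 48.5 CPM in knockouts, with no overlap. Its log2 fold change was -0.36 (SE 0.08, edgeR adjusted p 0.0255). The call was lost with an offset on GC content (-0.24, adjusted p 0.151), with the larger strand column and in 1 fit on all 12 libraries (adjusted p 0.0541 and 0.061), and in 5 of the 6 fits without 1 library, that is, without any 1 of the libraries except control replicate 3, with edgeR adjusted p up to 0.18.

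Within the lists, the other genes nearest to the threshold at P14 were Bcor of the PCGF1 complex (0.38, SE 0.10, edgeR adjusted p 0.0792), Suz12 of PRC2 (-0.23, SE 0.07, adjusted p 0.139) and the deacetylase Hdac1 (-0.25, SE 0.09, adjusted p 0.182). At P0 they were Pcgf2 (0.34, SE 0.10, edgeR adjusted p 0.121) and Phc2, a polyhomeotic subunit of canonical PRC1 (0.30, SE 0.10, adjusted p 0.143). The most abundant genes of these lists were Skp1 and Cbx6, with genotype log2 fold changes of 0.09 and -0.03 at P0 and of -0.16 and 0.08 at P14, none past the threshold.

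Between the control groups 10 of the 54 genes were higher at P14 and 27 were lower, or 68.5% past the threshold beside 64.0% of all genes. Chromobox genes divided: Cbx6 was higher by 2.18 and Cbx7 by 1.61 on the log2 scale, and Cbx2 fell by 1.61. Ezh2, the PRC2 methyltransferase of dividing cells, fell by 1.95 (SE 0.11, edgeR adjusted p 3.01e-13), and its paralog Ezh1 was higher by 0.32 (SE 0.09, adjusted p 0.00462). Kdm2b, which brings PCGF1 complexes to CpG islands, fell by 1.66. Of the opposing enzymes and cofactors 0 of 10 were higher and 4 were lower, among them the deubiquitinase cofactor Asxl3 (-1.68) and the demethylase Kdm6b (-0.86).

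Genes that Polycomb is known to keep silent in the forebrain, 40 Hox and other developmental regulators, were mostly at or near 0 in every group. In all libraries 18 of the 40 had 0 counts, and 37 were under 10 counts in every library. The 3 genes that reached 10 counts were Sox17, Foxa1 and Hoxa5. The other 37 genes together had 5, 14 and 10 counts in the P0 wild types and 4, 8 and 13 in the P0 knockouts. At P14 they had 15, 7 and 12 counts in the controls and 6, 4 and 17 in the knockouts. Hoxa5, singled out after its values were seen, had 0 counts in all 6 controls, 0, 1 and 1 in the P0 knockouts and 2, 4 and 12 in the P14 knockouts, too few to enter the test. Only Sox17, an endothelial regulator, and, at P0, Foxa1 had enough counts to be tested between genotypes, and neither passed. Sox17 had a log2 fold change of -0.46 (SE 0.15, edgeR adjusted p 0.157) at P14. A change in the other 38 genes below a few counts per library was not detectable at this depth.

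Genes whose promoter window holds the NRF1 motif printed above numbered 746. At P0 648 of them were tested, 1 was higher and 3 were lower in the knockout, or 0.617% beside 0.909% of all genes, and 60.0% had a positive log2 fold change beside 49.9%. Their median was 0.04 beside -0.00. At P14 657 were tested, 1 was higher and 3 were lower, or 0.609% beside 1.99%, and 45.4% were positive beside 48.5%, with a median of -0.02 beside -0.01. For the difference of effects, 3 of 666 were higher and 6 were lower, or 1.35% beside 1.79%. Here 36.5% were positive beside 48.7%, with a median of -0.08 beside -0.01. The motif genes come only from genes with a promoter window, which are a closer background. Of those, 50.5% were positive at P0, 47% at P14 and 46.7% for the difference, with medians of 0.00, -0.01 and -0.02. In the same order 0.829%, 1.97% and 1.87% of them passed the threshold. Of 14 textbook NRF1 targets, mostly genes of the respiratory chain and of mitochondrial transcription, 0 passed in either genotype comparison or in their difference. The nearest was Cox7c, a cytochrome oxidase subunit, at P14 (-0.25, SE 0.12, edgeR adjusted p 0.35). Between the control groups 8 of the 14 were higher at P14, among them Cox5b (0.96) and Cycs (0.82). Tfb1m (-0.70) and Tfam (-0.38) were the 2 lower ones, and Nrf1 itself was lower (-0.46). Thus 71.4% of the 14 passed, beside 64.0% of all genes, of which 32.3% were higher and 31.7% lower. Of 666 motif genes tested in this contrast, 204 were higher and 214 were lower, or 62.8%, with a median of -0.04.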

How the data were processed

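RNA was sequenced as paired reads of 150 bp from TruSeq libraries, per the labels' protocols. The authors deposited 1 file of raw read counts per gene and library, made on GRCm38 with STAR 2.7.5a, per the submitters' processing notes. Each strand column held 49.9% to 50.0% of the reads, and the unstranded column was taken. GENCODE vM21 gave symbols and coordinates, and RefSeq gave promoter windows.

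Counts were tested with edgeR 4.0.16 in R 4.3.3 (filterByExpr, TMM, robust glmQLFit and glmQLFTest), P0 and P14 on their own 6 libraries. The difference of effects and the contrast of controls came from 1 fit on all 12. The SE was derived from the coefficient and its F statistic. Adjustment by Benjamini-Hochberg ran over all genes tested, with a threshold of 0.05. Ratios were tested with exact permutation in SciPy 1.17.1, and the scripts were tested on simulated data. Log2 CPM used a prior count of 2.

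Replicates were numbered in accession order and pair nothing. The chi-square of replicate pairs over genes, per degree of freedom, was 3.1 to 19.3, above sampling noise. No molecular identifiers were used, so counts are not independent molecules.

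The 10 genes and all lists were chosen with earlier results of these data known. Named were the 10 genes, Auts2 and its paralogs, and from each other list the called genes, the 2 most abundant genes and the gene nearest to the threshold, though not all are printed. The genes most like Pcgf3 and Pcgf5 were the 3 with the highest r. Other genes named for the contrast of controls were chosen with their values known. Alternatives were RLE scaling, DESeq2 1.42.0, other count filters (none, or at least 10 counts in every library), the larger strand column, non-robust fitting, an offset on GC content (known for 99.9% of tested genes), a threshold of 0.1, the library series as a term, 1 fit on all 12 libraries and leaving out each library. The fit on the first P0 series and the settings for Bmi1 and Eed were added after seeing the data. Isoforms and single exons were not analysed here.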

Additional observations from a re-analysis of the deposited data

Results flagged for a closer look

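Bmi1 and Eed were the only 2 of the 54 other Polycomb and partner genes whose genotype effect differed between P14 hippocampus and P0 forebrain past the threshold, beside 1.79% of all genes tested. For Bmi1, a PCGF subunit of canonical PRC1, the P14 effect minus the P0 effect was -0.55 (SE 0.14, edgeR adjusted p 0.0463), from 0.17 at P0 and -0.36 at P14. Its P0 knockouts had 116.2, 121.5 and 87.1 CPM and its wild types 101.2, 92.1 and 93.1 CPM. For Eed, the PRC2 subunit that binds methylated H3K27, the difference was -0.66 (SE 0.17, edgeR adjusted p 0.0465), from 0.36 at P0 and -0.29 at P14. Eed was at 18.5, 22.8 and 20.4 CPM in P0 knockouts and 14.5, 14.8 and 18.4 CPM in wild types. At P14 it was at 12.1, 13.0 and 13.2 CPM in knockouts and 15.3, 15.4 and 16.4 CPM in controls. At P0 the effect of Bmi1 depended on the libraries used: it was 0.30 in the first library series and 0.31 without knockout replicate 3, both past the threshold (edgeR adjusted p 0.00614 and 0.0186), and 0.09 without knockout replicate 2. Eed at P0 was 0.49 in the first series, past the threshold (edgeR adjusted p 0.0175). Many more genes passed in those fits than the 147 in all P0 libraries. The first series gave 2107 genes, or 12.9% of those tested, and leaving out knockout replicate 3 gave 775. For the difference of effects, either call was lost with non-robust fitting, at edgeR adjusted p of 0.0657 and 0.0566. That of Bmi1 was also lost with RLE scaling (0.0541) and the larger strand column (0.0982). Bmi1 lost it in 10 of the 12 fits without 1 library and Eed in 9 of 12, with adjusted p up to 0.139 and 0.15. Marker lists moved between genotypes in the same P14 libraries, with 4 of 6 cortical and 1 of 6 striatal genes higher and 3 of 8 hippocampal genes lower. In the difference of effects 3 of 6 cortical and 3 of 6 striatal genes were higher and 2 of 8 hippocampal genes were lower. Their part in these values was not tested.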

How the results depend on the processing

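The count of 0 of the 10 genes past the threshold held at P0 and for the difference of effects under all alternatives run, and at P14 under all but 1, where leaving out control replicate 3 gave 1 (Ep300). The number of all genes past the threshold moved much more. At P0 it was 147, and it was 284 with 1 fit on all 12 libraries, 374 with DESeq2, 375 with the GC offset, 465 with the series term, 2107 in the first series, 625 without a filter, 50 with non-robust fitting and 462 at a threshold of 0.1. At P14 it was 342, and it was 534 with DESeq2, 814 without a filter and 684 at a threshold of 0.1. For the difference of effects it was 326, and it was 531, 646 and 563 under those settings and 205 with the larger strand column. Leaving out 1 library gave 1 to 775 genes at P0, 104 to 1808 at P14 and 125 to 905 for the difference. The cause was not tested.

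Reversals of sign occurred only among values that never passed the threshold. In the first P0 series the log2 fold changes of Rybp, Ep300 and Csnk2b became 0.06, 0.10 and -0.06. With the GC offset Rybp became 0.00073 at P0 and Yaf2 became 0.0012 at P14. With the larger strand column the ratios became -0.0042 (Ring1 to Rnf2, P14), -0.0018 (Rybp to Yaf2, P14) and 0.05 (Csnk2a1 to Csnk2b, P0). Fits without 1 library gave, at P0, -0.03 to 0.11 for Rnf2, -0.06 to 0.07 for Rybp, -0.16 to 0.06 for Ep300, -0.01 to 0.08 for Csnk2a1 and -0.02 to 0.09 for Csnk2b. At P14 they gave -0.02 to 0.11 for Rybp and -0.11 to 0.04 for Yaf2, and for the difference -0.05 to 0.11 for Rybp. For the ratios they gave -0.15 to 0.09 (Pcgf3 to Pcgf5), -0.02 to 0.19 (Ring1 to Rnf2), -0.02 to 0.23 (Rybp to Yaf2) and -0.08 to 0.04 (Csnk2a1 to Csnk2b) at P14, and -0.10 to 0.08 (Csnk2a1 to Csnk2b) at P0. Counts per gene limit Pcgf5 most, with 94 to 334 per library. No paired analysis was possible because the labels give animal numbers but no replicate numbers that pair a knockout with a control. In the first P0 series the animal numbers of the knockouts lay above those of the wild types, and a difference between litters was not tested.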
